A study of Mus musculus with 6 samples.

Results

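The control libraries of this series describe the RNA of atrial nuclei sorted for PCM1, in mice whose genotype label is control. The label names no allele. The sort aimed at cardiomyocyte nuclei, but markers of other cell types were also read at high levels. Levels are therefore those of the sorted nuclei as a whole. Of 26332 genes with values, 13229 had at least 10 normalized read counts in each of the 3 control libraries and form the baseline transcriptome described here, referred to as members. The animals were 8 to 12 weeks old, and nuclei of the left and right atrium of each animal were pooled, stained for the protein PCM1, sorted to keep cardiomyocyte nuclei and turned into 1 library per animal. The labels give neither the strain nor which alleles the control animals carry. The series also holds 3 libraries of Prrx1(R1A)-/- animals, which are not compared here. Because left and right atria were pooled, no value separates the chambers.

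PCM1 gathers around the nucleus of a cardiomyocyte once the cell has left the cell cycle and its centrosome has been reorganized, which makes it a handle for sorting these nuclei out of a heart that also holds fibroblasts, endothelial cells and macrophages. RNA inside nuclei is rich in unspliced transcripts and in noncoding RNA that never leaves the nucleus, so it reports on transcription and retention more than on the cytoplasmic pool. Atrial cardiomyocytes contract with their own set of myosin light chains, store natriuretic peptides in secretory granules and conduct and repolarize with a channel set that differs from that of the ventricle. Levels are compared between genes as normalized counts per kb of exon, the deposited normalized count divided by the length of the gene's merged exons. A gene's percentile is its place among the 12462 members with a known exon length, with 100 the highest. Errors are standard deviations over the 3 libraries.

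The sequences below are the ones to which the levels refer most directly, printed 5′ to 3′ from RefSeq tables of build GRCm38.p6. The first set is the pair of microRNAs encoded inside the cardiac myosin heavy chain genes, with the seed (bases 2 to 8) in capitals. miR-208a-3p (chr14:54949072-54949093, minus strand) and miR-208b-3p (chr14:54975710-54975731, minus strand) share the seed and 19 of 22 bases, and each hairpin lies in an intron of its host gene, Myh6 or Myh7.
miR-208a-3p: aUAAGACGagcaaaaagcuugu
miR-208b-3p: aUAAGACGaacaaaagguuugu

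The second set holds the 250 bases before the annotated start of 3 cardiomyocyte genes among the highest per kb and of Fos, which differed most widely between animals of the 4. Capitals mark TATAAA, the core of a TATA box, in Nppa (chr4:148000472-148000721, plus strand) and Fos (chr12:85473640-85473889, plus strand). It begins 9 bases before the annotated start in Nppa and 33 before it in Fos, and whether it acts there was not tested. In Myl7 (chr11:5898783-5899032, minus strand) and Tnnt2 (chr1:135836084-135836333, plus strand) capitals mark CATTCCT, the M-CAT element bound by TEAD factors.
Nppa: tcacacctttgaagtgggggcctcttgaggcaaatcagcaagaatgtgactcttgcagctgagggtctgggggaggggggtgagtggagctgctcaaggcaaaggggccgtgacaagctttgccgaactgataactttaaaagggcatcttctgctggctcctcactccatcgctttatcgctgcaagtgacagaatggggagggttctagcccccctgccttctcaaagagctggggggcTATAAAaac
Myl7: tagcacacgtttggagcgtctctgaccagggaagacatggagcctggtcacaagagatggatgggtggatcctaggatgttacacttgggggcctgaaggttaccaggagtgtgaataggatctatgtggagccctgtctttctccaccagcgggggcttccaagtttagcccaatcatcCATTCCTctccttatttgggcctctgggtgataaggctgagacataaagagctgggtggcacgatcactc
Tnnt2: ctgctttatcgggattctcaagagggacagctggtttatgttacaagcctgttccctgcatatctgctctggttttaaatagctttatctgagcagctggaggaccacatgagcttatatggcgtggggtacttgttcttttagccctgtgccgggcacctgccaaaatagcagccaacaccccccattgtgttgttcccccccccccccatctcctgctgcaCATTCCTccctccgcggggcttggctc
Fos: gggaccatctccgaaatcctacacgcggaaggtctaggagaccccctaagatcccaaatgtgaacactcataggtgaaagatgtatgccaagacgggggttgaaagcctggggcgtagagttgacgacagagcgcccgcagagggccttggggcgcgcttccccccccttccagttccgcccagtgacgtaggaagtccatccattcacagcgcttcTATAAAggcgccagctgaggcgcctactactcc
On either strand of such windows, CATTCCT was found in 7 of 46 sarcomere and Z-disc members with a window (15.2%), in 3.72% of the 10213 members with a window and in 4.43% of all 27025 windows. The motif of GATA-binding factors, AGATAA, was found in 10 of the 46 (21.7%), in 5.70% of members and in 10.3% of all windows. TATAAA was found in 6 of the 46 (13%), in 6.58% of members and in 13% of all windows. The Sp1 motif GGGCGG was found in 17 of the 46 (37.0%), in 58.4% of members and in 32.9% of all windows. Base composition also differed between these sets of windows. The median GC content was 55% in the sarcomere and Z-disc windows, 60% in windows of members and 52% in all windows, and its part in the shares was not tested.

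Reads counted on genes, as recovered from the deposited values, numbered 12080965, 10580961 and 11952605 in control replicates 1, 2 and 3. Reads not counted on a gene are not in these sums. Ribosomal RNA took 46.5%, 12.0% and 17.9% of the counted reads, which left 6465255, 9311997 and 9807543 reads on other genes. Control replicate 1 stood apart from the others. Across 13225 members its log2 counts correlated with those of replicates 2 and 3 with Pearson r of 0.898 and 0.900, against 0.964 between replicates 2 and 3. It held the lowest value of the 3 libraries for 41.2% of members and the highest for 42.6%. For many of the classes below, the median without it stands beside the median over all 3 libraries. The number of genes passing the limit was 13816 without replicate 1, 13436 without replicate 2 and 13569 without replicate 3.

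The members covered nearly all of the reads counted on genes. Genes outside them took 0.527% of the reads that were not ribosomal. Of the other genes, 6466 were at 0 in all 3 libraries, 4357 were detected and stayed under 10 in all 3, and 2280 reached 10 in only 1 or 2 libraries. Just inside the limit, 162 members had a lowest value between 10 and 11, and just outside it 63 genes had a lowest value between 9 and 10. By RefSeq class 12376 members were protein-coding, 430 long noncoding RNAs and 14 microRNA genes. The exons of 3320 members overlap exons of a gene on the other strand, in part or in full. Since the library method kept no strand, reads inside such an overlap cannot be assigned to either gene. Of the genes named below this holds for the muscle genes Myh6, Myh7, Myh7b, Mybpc2, Myh1, Myh2, Myl2, Myl4 and Ttn, for Nppa, Npr3, Corin, Atp2a2, Pln, Cacna1d, Cacna1h, Kcnj3, Abcc9, Gja5, Chrm2 and Adcy6, and for Malat1, Mhrt, COX1, Cox6a2, Aldoa, Lipe, Alas2, Rps25, Akap9, Shox2, Nr1d1 and Arntl. Overlap was looked for between exons only, and not for the 763 members without an exon length. Overlap with introns on the other strand was not looked for, so the genes listed here may not be all.

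Levels spanned a wide range and were headed by a nuclear RNA, with muscle, matrix, complement and plasma protein genes among the next. The median member had 55.9 normalized counts per kb, the 90th percentile stood at 227.6 and the 99th at 959 normalized counts per kb. Malat1, a noncoding RNA retained in nuclear speckles, alone took 16.6%, 15.5% and 15.1% of the non-ribosomal reads in replicates 1, 2 and 3. The 10 genes with most reads took 23.8% to 24.8% of the reads in each library and the top 1000 took 59.1% to 62.4%. Of the 25 genes highest per kb in each library, 13 were shared by all 3 libraries and 21 by replicates 2 and 3.

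**Figure D1:**
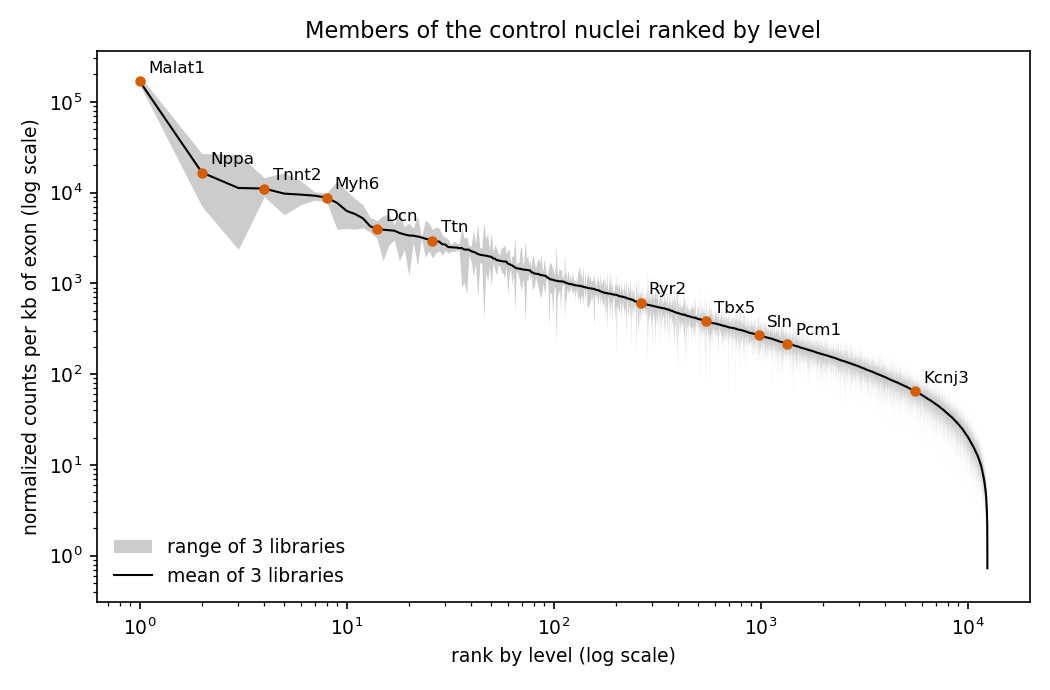
Mean level of each member with an exon length (normalized counts per kb of exon, log scale) against its rank (log scale); the grey band is the range of the 3 control libraries. Malat1 leads at 168560 normalized counts per kb. Muscle genes such as Nppa and Myh6 and the matrix gene Dcn lie among the highest, and Kcnj3 lies near the middle of the members at 64.9.

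The 25 genes highest per kb on the 3-library mean held the muscle genes Nppa, Tnnt2, Myh6 and Myl7 and the mitochondrial genes COX1, ND1 and CYTB. Nppa, which encodes atrial natriuretic peptide, ranked second with 16623 ± 9943 normalized counts per kb. Genes of matrix, complement and plasma proteins filled much of the rest, namely Gsn, Mgp, Igfbp5, Apoe, Bgn, C3, Serping1, Dcn and Gpx3. Gsn, the actin-severing protein gelsolin, had 9493 ± 3487 normalized counts per kb and Mgp, an inhibitor of matrix calcification, 9242 ± 977. The list also held the small nuclear RNA Rn7sk, the immune gene Cd74, the LIM-domain gene Crip1, the stress-induced phosphatase gene Dusp1, the intermediate filament gene Vim, the chaperone gene Hsp90ab1 and the cytoskeletal actin gene Actb. Lars2, a mitochondrial leucyl-tRNA synthetase gene, ranked just after Nppa, on a single library: it had 102410 normalized counts in replicate 1 against 9187 and 19611 in replicates 2 and 3. The ribosomal RNA precursor Rn45s was likewise highest in replicate 1, at 4733100 normalized counts, against 557150 and 1071900 in replicates 2 and 3, and its part in the level of Lars2 was not tested.

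Defining genes of the labelled cell type were read at high levels. Pcm1 itself had 1135, 1712 and 1547 normalized counts in replicates 1, 2 and 3, which placed it at the 89.2 percentile per kb. Myh6 (chr14:54941921-54966641, minus strand), the fast myosin heavy chain of the atrium and of the adult mouse heart, had 52575, 48659 and 60467 normalized counts. All 3 animals lay close together for Myh6. Tnnt2 (chr1:135836354-135852260, plus strand), cardiac troponin T, had 12132, 11348 and 18455 normalized counts. Ttn (chr2:76703980-76982547, minus strand), the giant elastic protein of the sarcomere, had 217140, 345180 and 443910 normalized counts. Ryr2 (chr13:11553102-12106945, minus strand), the calcium release channel, had 6399.6, 10812 and 16192 normalized counts. For Tnnt2 replicate 3 stood above the others, and for Ttn and Ryr2 replicate 1 was the lowest and replicate 3 the highest. All 10 listed cardiomyocyte markers were members, and all 10 lay in the upper 10% of members per kb. Their median percentile was 99.8, against 50 for all members by construction. The list was chosen with earlier results of these data known, so these ranks describe the chosen genes and do not test cell identity. Muscle genes outside the list were not all as high. Of 28 Z-disc members 20 lay in the upper 10%, while Casq2, Trdn and Nebl lay at the 71.9, 30.6 and 18.5 percentiles.

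Genes that mark other cells of the atrium were also read at high levels. Of 16 fibroblast markers, 16 were members and 14 lay in the upper 10%, with a median percentile of 97.8 (97.7 without replicate 1). Dcn, a small matrix proteoglycan, had 7585, 9465 and 6103 normalized counts in replicates 1, 2 and 3, and Col3a1, a fibrillar collagen, 13121, 7214 and 6978. Of 16 endothelial and endocardial markers, 15 were members and 11 lay in the upper 10%. The TGF-beta co-receptor gene Eng led with 2446 ± 256 normalized counts per kb. The endothelial adhesion molecule Pecam1 had 4847, 6204 and 6992 normalized counts and Lyve1, a marker of lymphatic endothelium and of some macrophages, 2801, 4979 and 5889. Of 12 epicardial markers all 12 were members and 8 lay in the upper 10%, led by the mesothelial genes Upk3b at 884 ± 279 and Msln at 791 ± 278 normalized counts per kb. The mesothelial gene Lrrn4 had 454 ± 103 normalized counts per kb. Of 22 immune markers, 20 were members, 11 of them in the upper 10%. The class II invariant chain gene Cd74 had 6572, 6049 and 1703 normalized counts, so that replicate 3 was far below the other animals. The class II gene H2-Aa had 3405, 3702 and 866 normalized counts and showed the same low value in replicate 3, while the myeloid lysozyme gene Lyz2 had 4089, 2161 and 1744. The median percentile of immune markers was 92.3, or 89.9 without replicate 1. The sort was gated to leave out nuclei of other cells, per the labels' protocols.

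The 10 cardiomyocyte markers took 3.71%, 6.34% and 7.97% of non-ribosomal reads in replicates 1, 2 and 3, against 1.21%, 1.03% and 0.870% for the 16 fibroblast markers. Ttn gave most of the cardiomyocyte sum. In a comparison chosen after seeing the data, the other 9 cardiomyocyte markers summed to 84599, 96811 and 135960 normalized counts in replicates 1, 2 and 3, against 98349, 71574 and 63264 for the fibroblast markers, so that the order turned in replicate 1. Summed per kb of exon, all 10 cardiomyocyte markers gave 34173, 45933 and 70959 and the fibroblast markers 38334, 32126 and 27407 normalized counts per kb, and replicate 1 again had the larger fibroblast sum. Endothelial markers took 0.471%, 0.552% and 0.576%, immune markers 0.362%, 0.327% and 0.171%, and epicardial markers 0.197%, 0.133% and 0.161%. Replicate 1 thus had the smallest cardiomyocyte share and the largest fibroblast, immune and epicardial shares. In bulk nuclei, fewer nuclei of a type and less RNA per nucleus cannot be told apart, and nor can RNA carried over from other cells. Of 12 smooth muscle and pericyte markers 11 were members, with a median percentile of 42.2. The mural cell receptor gene Pdgfrb had 271 ± 151, smooth muscle actin Acta2 166 ± 70.2 and the adhesion gene Mcam 162 ± 27.7 normalized counts per kb. The smooth muscle myosin gene Myh11 had 286, 356 and 252 normalized counts. Of 14 Schwann cell and neuron markers 9 were members, at a median percentile of 6.37, led by the myelin gene Mbp with 66.1 ± 27.6, the glial cadherin Cdh19 with 16.5 ± 5.69 and the neuronal gene Stmn2 with 14.2 ± 8.09 normalized counts per kb. The neuronal genes Th and Snap25 were at 0 in all 3 libraries. Of 10 adipocyte markers 3 were members: Fabp4, Lipe and Pparg.

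The markers of lung epithelium and most markers of skeletal muscle were not members. A count of 0 allows up to 3 reads, which equals 3.77, 2.25 and 2.22 normalized counts in replicates 1, 2 and 3 and covers counting error only. Of 6 lung epithelium markers none was a member, and the highest single value was 11.9 normalized counts for the surfactant gene Sftpb in replicate 3. Of 12 skeletal muscle markers 2 were members: Tnnt3, with 100.7, 60.7 and 52.6 normalized counts, and Actn3. The skeletal myosin genes Myh1, Myh2 and Myh4 did not exceed 2.22 normalized counts. Of the blood markers with values, 2 were members: the platelet chemokine gene Pf4, with 253, 240.4 and 189 normalized counts in replicates 1, 2 and 3, and the haem synthesis gene Alas2, with 85.6, 138 and 188. The globin genes Hba-a1 and Hba-a2 are near-identical copies whose reads could be split or dropped in counting, and they had at most 5.03 normalized counts.

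**Figure D2:**
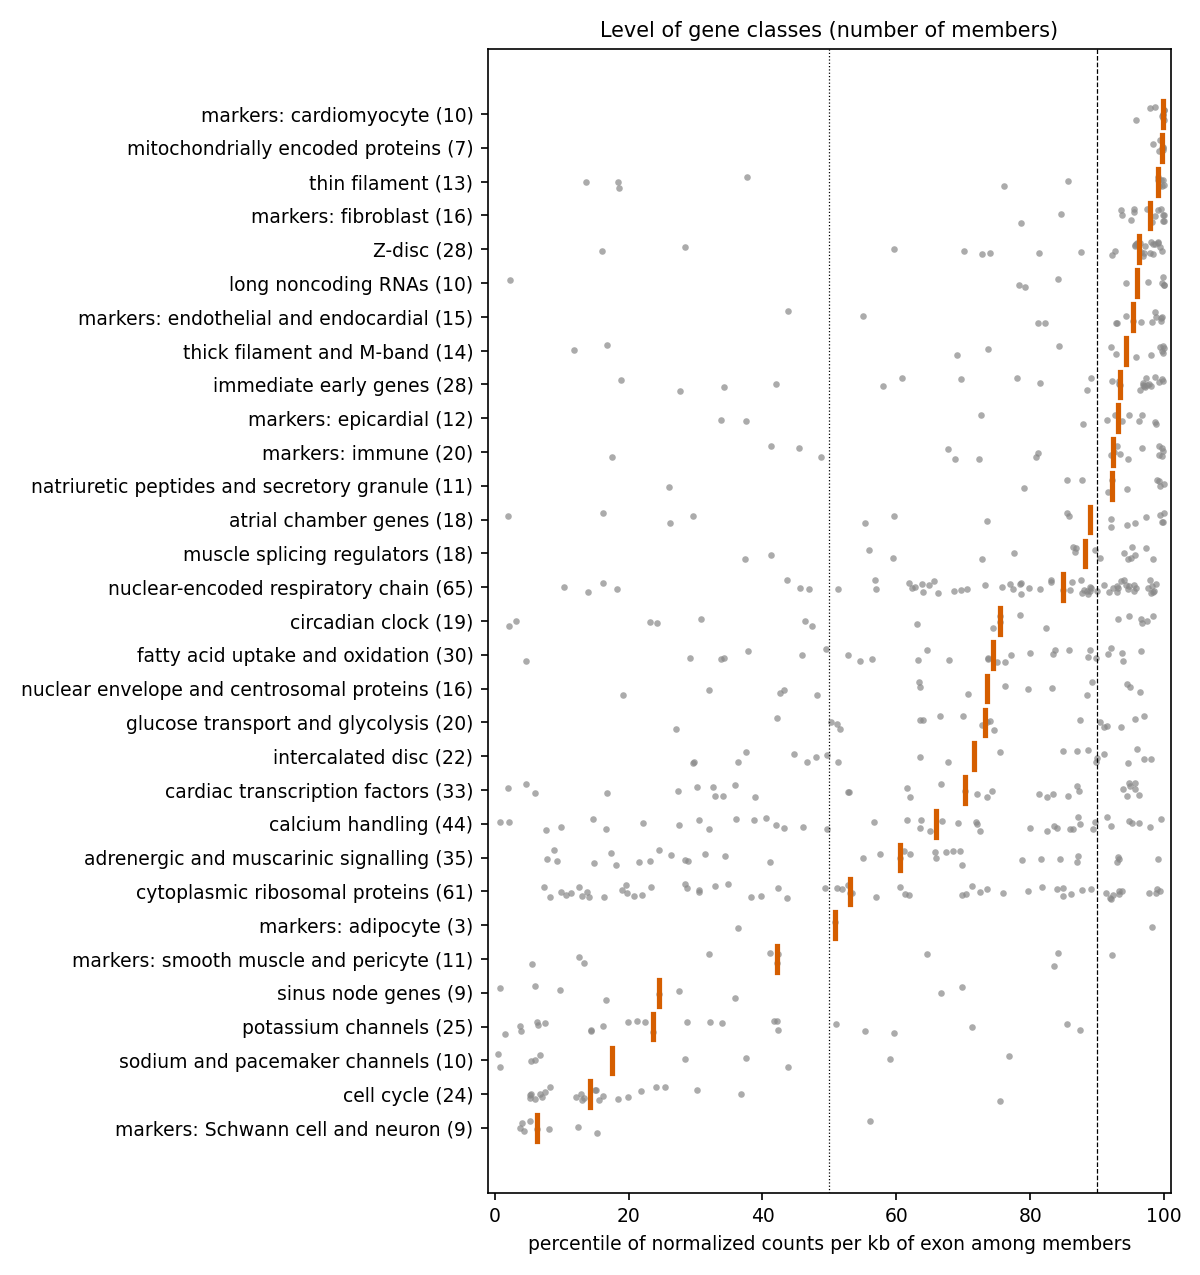
Percentile of each listed gene among members by mean normalized counts per kb of exon; grey points are genes, orange bars class medians, and the number of members with an exon length stands in brackets. The dotted and dashed lines mark the 50th and 90th percentiles; cardiomyocyte markers lie at a median of 99.8 and Schwann cell and neuron markers at 6.37.

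Chamber identity was read from 11 pairs of related genes compared per kb in each library. The atrial light chain Myl7 had 1554, 1854 and 3399 normalized counts in replicates 1, 2 and 3, against 2.52, 15.0 and 2.22 for its ventricular counterpart Myl2. Per kb Myl7 was 261 times Myl2 in replicate 2 (95% interval 169 to 428 from read counts). The other libraries had 2 and 3 reads of Myl2, with ratios of 1301 (359 to 10754) in replicate 1 and 3219 (1101 to 15616) in replicate 3. Myl7 stood far above Myl2 in every library. The essential light chain Myl4, which is atrial in the adult, was 248 (145 to 467) and 598 (325 to 1248) times its ventricular partner Myl3 per kb in replicates 2 and 3. In replicate 1 Myl3 had no read and Myl4 was at least 257 times higher.

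Of 10 listed ventricular chamber genes 2 were members, Myh7 and Hey2. The ventricular homeobox gene Irx4 was at 0 in all 3 libraries, against 1067, 1711 and 1754 normalized counts for Tbx5, a T-box factor of the atria, which per kb was at least 187, 504 and 521 times higher in replicates 1, 2 and 3. Of 18 listed atrial chamber genes all 18 were members and 9 lay in the upper 10%. Nr2f2, a nuclear receptor that sets atrial identity, was 3.58 ± 1.02 times Hey2, its ventricular counterpart in this pairing, per kb and 6.83 times by counts. In bulk nuclei, the cell types that gave the reads of these 2 genes cannot be told.

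Within the heavy chains the separation was much smaller. Myh7, the slow heavy chain, had 7243, 9624 and 10011 normalized counts, and Myh6 was 6.32 ± 1.14 times Myh7 per kb. The exons of Myh7 overlap those of Mhrt (chr14:54968678-54974349, plus strand), a noncoding RNA of the locus that had 1101, 783 and 769 normalized counts. Reads inside this overlap cannot be separated by strand. Cardiac actin Actc1 had 1522, 4318 and 4579.8 normalized counts, and the skeletal actin Acta1 had 0, 7.49 and 7.42. Per kb Actc1 was 566 (308 to 1181) and 606 (329 to 1265) times Acta1 in replicates 2 and 3 and at least 396 times higher in replicate 1. The adult troponin I gene Tnni3 was 611 (280 to 1666) and 796 (419 to 1743) times the slow skeletal and fetal gene Tnni1 in replicates 2 and 3, and 1195 (330 to 9874) times in replicate 1, which had 2 reads of Tnni1.

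The remaining pairs differed by smaller factors. Nppa was 15.3 ± 3.44 times Nppb per kb, the second natriuretic peptide gene. Sarcolipin (Sln) and phospholamban (Pln), small proteins that restrain the calcium pump of the sarcoplasmic reticulum, stood at a ratio of 1.14 ± 0.247 per kb, with values of 1.08 (0.865 to 1.33), 0.936 (0.828 to 1.06) and 1.42 (1.29 to 1.55) in replicates 1, 2 and 3. Sln was above Pln beyond counting error in replicate 3 alone. By counts rather than per kb the ratio was 0.546, because the exons of Pln are longer. The connexin gene Gja5, known for atrial and conduction tissue, was 0.196 ± 0.0990 times Gja1 per kb and 0.332 times by counts, and Gja1 is also read in fibroblasts and endothelium. Kcnj3, a pore of the acetylcholine-activated potassium channel, was 2.82 ± 0.481 times Kcnj2, the pore of the classical inward rectifier.

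**Figure D3:**
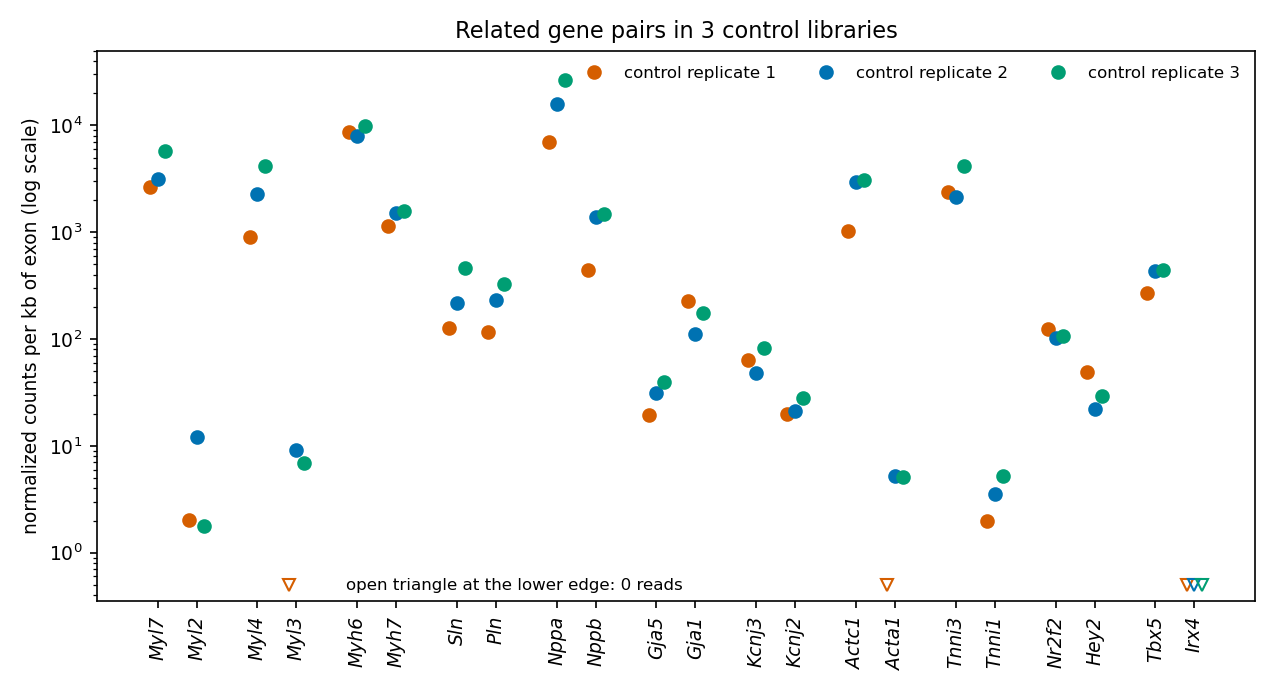
Level of each gene of the 11 pairs in control replicates 1, 2 and 3 (normalized counts per kb of exon, log scale; open triangles mark 0 reads). Myl2, Myl3, Acta1, Tnni1 and Irx4 lie far below their partners in every library, while Sln and Pln overlap.

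Sarcomere genes were among the most highly read classes. Of 17 thick filament and M-band genes 14 were members, with 9 in the upper 10% and a median percentile of 94.3 (95.9 without replicate 1). The thick filament anchor Mybpc3, cardiac myosin binding protein C, had 1020.5, 1650 and 2252 normalized counts, and the M-band gene Myom1 999, 4561 and 5123. For Myom1 replicate 1 lay far below the other animals, whose values were close. At the lower end Myh7b, a heavy chain relative that hosts the microRNA gene Mir499, reached the 11.9 percentile and Mybpc2, the fast skeletal binding protein, the 16.8 percentile. Myl2, Myl3 and Myom3 were below the limit.

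Of 15 thin filament genes 13 were members and 7 lay in the upper 10% (median percentile 99, or 98.7 without replicate 1). After Tnnt2 came Tnni3 with 2898 ± 1111 and Actc1 with 2358 ± 1150.4 normalized counts per kb. The calcium sensor Tnnc1 had 434, 776 and 984 normalized counts and the leiomodin Lmod2, which lengthens thin filaments, 2554, 1530.1 and 1677. Lmod2 was highest in replicate 1, unlike most genes of this class. Nebl, the short cardiac nebulin relative, lay at the 18.5 percentile and Neb, the long nebulin of skeletal muscle, at 13.6. Of 30 Z-disc genes 28 were members and 20 lay in the upper 10% (median percentile 96.2, or 97.5 without replicate 1). The stress-responsive nuclear and sarcomeric protein gene Ankrd1 led with 2179.7 ± 569.6 normalized counts per kb, followed by the muscle LIM protein Csrp3 with 1234 ± 341 and the titin cap Tcap with 1054 ± 469.9. Myoz1, a skeletal calsarcin, was at 0 in all 3 libraries and its cardiac relative Myoz2 had 157, 475 and 724 normalized counts.

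Calcium handling genes spread over the whole range of levels. All 44 were members, 7 lay in the upper 10% and the median percentile was 65.9 (70.1 without replicate 1). The pump of the sarcoplasmic reticulum, Atp2a2, led with 6544, 9090.2 and 12947 normalized counts or 1805 ± 611 per kb. Ryr2 followed with 611 ± 269 and the calmodulin gene Calm2 with 428 ± 147 normalized counts per kb. Casq2, the calcium buffer of the reticulum, stood at the 71.9 percentile, and Trdn, which anchors it to the release channel, at 30.6. Among pore subunits of the surface calcium channels, Cacna1c, the main L-type pore, had 941, 1609.5 and 1848 normalized counts and 96.3 ± 30.9 per kb. Cacna1d, the L-type pore used by pacemaker cells, had 28.1 ± 4.88 per kb, and the T-type pores Cacna1g and Cacna1h had 16.0 ± 5.11 and 3.53 ± 1.62. The level of Cacna1d was below that of Cacna1c in every library. The inositol trisphosphate receptor Itpr2 had 362 ± 96.7 normalized counts per kb, at the 95.2 percentile.

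Channels that set excitability lay low in the ranking. Of 17 sodium and pacemaker channel genes 10 were members, none in the upper 10%, at a median percentile of 17.6. Without replicate 1 this median was 16.8 with the same members and 10.9 with members chosen again. It was 26.8 with a limit of 50 and 28.1 with no limit. Gpd1l, a dehydrogenase-like gene, had 71.8 ± 12.8 normalized counts per kb. Hcn4, the pacemaker channel of the sinus node, had 31.5, 19.5 and 13.3 normalized counts, which placed it at the 0.754 percentile. Of 35 potassium channel genes 25 were members, none in the upper 10%, at a median percentile of 23.7. The most highly read were Abcc9 and Abcc8, sulfonylurea receptors that partner the ATP-sensitive pores, with 195 ± 36.1 and 102 ± 16.7 normalized counts per kb, and Kcnk3, a background channel of the atrium, with 177 ± 74.5. The partners of the acetylcholine-activated channel, Kcnj5 and Kcnj3, had 73.1 ± 10.9 and 64.9 ± 17.5 per kb, a difference within their spread. Kcna5, the pore of the ultrarapid current, had 17.2 ± 9.49, and the accessory subunits Kcne1 and Kcne2 were at 0 in all 3 libraries.

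At the intercalated disc 22 of 23 genes were members, 6 of them in the upper 10% (median percentile 71.6, or 73.7 without replicate 1). The desmosomal and adherens proteins Jup and Ctnna1 had 625 ± 252 and 502 ± 89.6 normalized counts per kb. The junctional scaffold Tjp1 had 402 ± 78.3 normalized counts per kb. The desmosomal gene Pkp2 had 177, 853 and 809.8 normalized counts, with replicate 1 far below the others. Gja5 lay at the 29.6 percentile with 111, 176 and 226 normalized counts. Of 39 adrenergic and muscarinic signalling genes 35 were members and 4 lay in the upper 10% (median percentile 60.5, or 58.1 without replicate 1). The inhibitory G protein gene Gnai2 had 962 ± 122 normalized counts per kb, and the cardiac cyclase gene Adcy6 296 ± 70.0 while the other cardiac cyclase gene, Adcy5, had 29.0 ± 1.70. Adcy4, another cyclase gene, had 289 ± 30.6 normalized counts per kb. The muscarinic receptor gene Chrm2 had 133, 164 and 247 normalized counts and the beta receptor gene Adrb1 56.6, 15.0 and 33.4.

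Of 44 cardiac transcription factor genes 33 were members, 7 of them in the upper 10% (median percentile 70.2, or 69.2 without replicate 1). Tbx5 had 383 ± 97.6, Tbx20 351 ± 90.3, Gata6 342 ± 52.2 and Gata4 314 ± 37.0 normalized counts per kb, with overlapping spreads and no comparison within libraries. These are core regulators of heart muscle genes. Heyl, a Notch target factor, had 419.7 ± 152 normalized counts per kb and the highest mean of the class. Srf, which drives muscle and immediate early genes, had 1993 normalized counts in replicate 1 against 417.9 and 630.3 in replicates 2 and 3. Nkx2-5, a homeobox factor of cardiomyocytes, had 31.5, 9.74 and 26.0 normalized counts and missed the limit by replicate 2 alone. Prrx1, a homeobox factor of mesenchymal cells and the gene named in the genotype label of the other libraries, had 415, 335 and 282 normalized counts, at the 34.1 percentile. Its value in replicate 3 was the 1 value of the 3 columns that is not a whole number of reads. Of 11 sinus node genes 9 were members at a median percentile of 24.5, a position that depends on the length used: it was 51.3 by counts and 7.49 by genomic span. The class held the nodal repressor Tbx3 at 93.1, 279 and 202 and the node factor Shox2 at 22.6, 38.9 and 26.7 normalized counts. Isl1, another node factor, had at most 2.22. The highest of this class per kb were the matrix gene Smoc2 with 98.2 ± 27.4 and the T-box factor Tbx18, also an epicardial gene, with 88.5 ± 45.4 normalized counts per kb.

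Several natriuretic peptide and secretory granule genes were read at high levels. Of 17 listed genes 11 were members and 7 lay in the upper 10% (median percentile 92.2, or 95.1 without replicate 1). Nppa had 6098, 13773 and 23267 normalized counts in replicates 1, 2 and 3, and Nppb 344, 1080 and 1150.1. For both genes replicate 1 was the lowest, and Nppa alone differed widely between replicates 2 and 3. Pam, the amidating enzyme that is the chief membrane protein of atrial granules, had 2964, 5527 and 6739.9 normalized counts or 1236 ± 469 per kb. Corin, the protease that cleaves the Nppa precursor, had 458, 1569 and 1793 normalized counts. Bmp10, an atrial growth factor, had 956, 1619 and 1869. The clearance receptor gene Npr3 had 6830, 6601 and 7122 normalized counts, close together in all 3 animals. The granins Chga and Scg2, common cargo of neuroendocrine granules, were at 0 in all 3 libraries.

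Energy metabolism genes ranked highest where the mitochondrial genome encodes them. Of 13 protein genes of the mitochondrial genome 7 were members, all 7 in the upper 10% (median percentile 99.7), and COX1 led with 2754, 6714 and 8621 normalized counts. The other 6 (COX2, COX3, ATP6, ATP8, ND3 and ND4L) were listed at 0 in all 3 libraries. Mitochondrial genes have near-identical copies in the nuclear genome that counting may drop, so these entries are uncertain. The sorted material is nuclear, and the source of the mitochondrial RNA in it was not tested. Of 79 nuclear genes of the respiratory chain 65 were members, with 22 in the upper 10% and a median percentile of 84.9. Without replicate 1, 31 lay in the upper 10% and the median was 89.4. The ATP synthase gene Atp5b led with 842, 1809.5 and 2314 normalized counts or 864 ± 391 per kb, and Cox6a2, the muscle form of a cytochrome oxidase subunit, had 734 ± 229. The ATP synthase subunit gene Atp5e had 777 ± 207 normalized counts per kb. By counts rather than per kb, the median percentile of this class was 47.7.

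Of 30 fatty acid uptake and oxidation genes all 30 were members, 5 in the upper 10% (median percentile 74.4, or 80.5 without replicate 1). Pdk4, the kinase that shuts off glucose oxidation, had 423, 2528 and 1674 normalized counts and the coactivator Ppargc1a, a driver of mitochondrial genes, 258, 1776 and 2341. Both were several-fold lower in replicate 1 than in the other animals. Lpl, the lipase that releases fatty acids from lipoproteins, had 316 ± 56.5 and Etfb, a subunit of the electron transfer flavoprotein, 309 ± 47.9 normalized counts per kb. Of 25 genes of glucose transport and glycolysis 20 were members, 6 in the upper 10% (median percentile 73.2, or 77.0 without replicate 1), led by Aldoa with 484 ± 162 and the muscle mutase Pgam2 with 388 ± 165 normalized counts per kb. The muscle enolase gene Eno3 had 305 ± 72.8 normalized counts per kb. Gapdh was not a member, with 3.77, 20.2 and 21.5 normalized counts, and nor were Pgk1 and Pgam1. These 3 genes have many processed pseudogenes, which can take or void their reads, so their low values are uncertain. The same holds for cytoplasmic ribosomal protein genes, of which 61 of 79 were members at a median percentile of 53.0 (56.6 without replicate 1). Their levels ran from 1304 ± 579 normalized counts per kb for Rps15 to 10.2 ± 3.95 for Rps25 among members, and 18 stayed below the limit. Rpl8 and Rpl4 had 957 ± 125 and 859 ± 70.4 normalized counts per kb. Rpl13 had at most 2.52 normalized counts.

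Noncoding RNA was headed by Malat1. Of 23 listed long noncoding RNAs 20 were members, and 10 of these had an exon length, with 6 in the upper 10%. Together the listed RNAs took 17.7%, 16.6% and 16.1% of non-ribosomal reads, nearly all of it Malat1. Neat1, the scaffold of paraspeckles, had 8936, 5124 and 6336 normalized counts. Xist, which coats the inactive X chromosome, had 47597, 46180 and 40451 normalized counts, close together in all 3 animals. Kcnq1ot1 and Airn, long nuclear RNAs that silence imprinted clusters, had 7996, 9925 and 10293 and 2684, 1449 and 1439 normalized counts. Because the libraries kept no strand, unspliced transcripts from the other strand may add to the counts of such long RNAs, which was not tested. At the myosin locus the order of the hairpin genes, 83 bases long for Mir208a and 77 for Mir208b, was opposite to that of the hosts. Mir208b, inside Myh7, had 234, 492 and 459.8 normalized counts, and Mir208a, inside Myh6, had 18.9, 19.5 and 12.6. These are reads over the hairpin genes, which may be host intron or precursor, and the mature microRNAs with the seeds printed above were not measured.

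Genes of the nuclear envelope and centrosome were all members (16 of 16), with 3 in the upper 10% and a median percentile of 73.5. Syne2, a giant linker of nucleus and cytoskeleton, led with 432 ± 122 normalized counts per kb, then the lamin gene Lmna with 352 ± 91.4 and the centrosomal anchor Akap9 with 331 ± 14.8. Akap6, the scaffold that recruits centrosomal proteins to the envelope of muscle nuclei, had 1153, 2353 and 2681 normalized counts, lowest in replicate 1. All 18 muscle splicing regulators were members, 8 in the upper 10% (median percentile 88.2, or 90.3 without replicate 1). Rbpms had 709.6 ± 148 and Rbm20, which controls titin splicing, 533 ± 67.9 normalized counts per kb. The muscleblind gene Mbnl1 had 381 ± 105 normalized counts per kb. Rbfox1, a neuronal and muscle splicing factor, lay at the 37.4 percentile.

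Of 20 clock genes 19 were members, 6 in the upper 10% (median percentile 75.5, or 66.6 without replicate 1). The repressor gene Nr1d1 had 2461, 1893 and 1453 normalized counts and Per1 4237, 2539.7 and 2539.8, while the activator gene Arntl had 20.1, 19.5 and 19.3 and Npas2 27.7, 16.5 and 24.5. Per2, a further repressor gene, had 3405, 2011 and 2495. All 3 animals gave nearly the same value for Arntl, on few reads, where counting error is larger than these differences. The time of day of collection is not in the labels. Of 30 cell cycle genes 24 were members, none in the upper 10% and 23 of them below the 50th percentile, at a median of 14.2. The exception was the proliferation marker Mki67, with 1555, 969 and 1047 normalized counts at the 75.4 percentile. Next per kb was the replication helicase gene Mcm3 with 37.98 ± 5.70 normalized counts per kb. Top2a had 100.7, 197 and 185 normalized counts, while Ccnb1 and Cdk1 were below the limit.

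Differences between animals followed gene class. The coefficient of variation over the 3 libraries had a median of 27.5% over all members and lay under 20% for 33.2% of members. A wide gap concerned immediate early genes, which are switched on within minutes of a stimulus. Of 28 such genes 27 were higher in replicate 1 than in the mean of replicates 2 and 3, with a median log2 difference of 1.80, against 0.0030 over all members. Fos had 2941 normalized counts in replicate 1, against 493.6 and 266.2 in replicates 2 and 3. Egr1 had 20937 against 4596 and 1827, and the nuclear receptor Nr4a1 7102 against 620.1 and 858.0. Without replicate 1 the median percentile of the class was 85.5 in place of 93.4. In the same library 19 of 20 immune members were higher, with a median of 0.78, and 10 of 12 epicardial members, with a median of 0.67. The ribosomal RNA share was also highest there, and its part in these differences was not tested.

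The muscle and energy classes went the other way in replicate 1. None of the 10 cardiomyocyte markers was higher there, with a median log2 difference of -0.90 from the mean of replicates 2 and 3. The median was -0.81 for thick filament and M-band genes, -0.77 for Z-disc genes, -0.77 for the nuclear-encoded respiratory chain and -0.76 for fatty acid genes. Scaling each library to its sum without ribosomal RNA moved the median of all members to -0.19, and TMM scaling moved it to -0.03, so these class medians, which are on the deposited scale, shift by about as much. The summed level of immediate early genes in replicate 1 was 3.57 times the mean of the others as deposited, and 3.11 and 3.49 times under these scalings. For cardiomyocyte markers it was 0.591, 0.518 and 0.578 times. Leaving out replicate 1, the summed markers of cardiomyocytes still differed between animals, with 441990 and 579860 normalized counts in replicates 2 and 3.

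**Figure D4:**
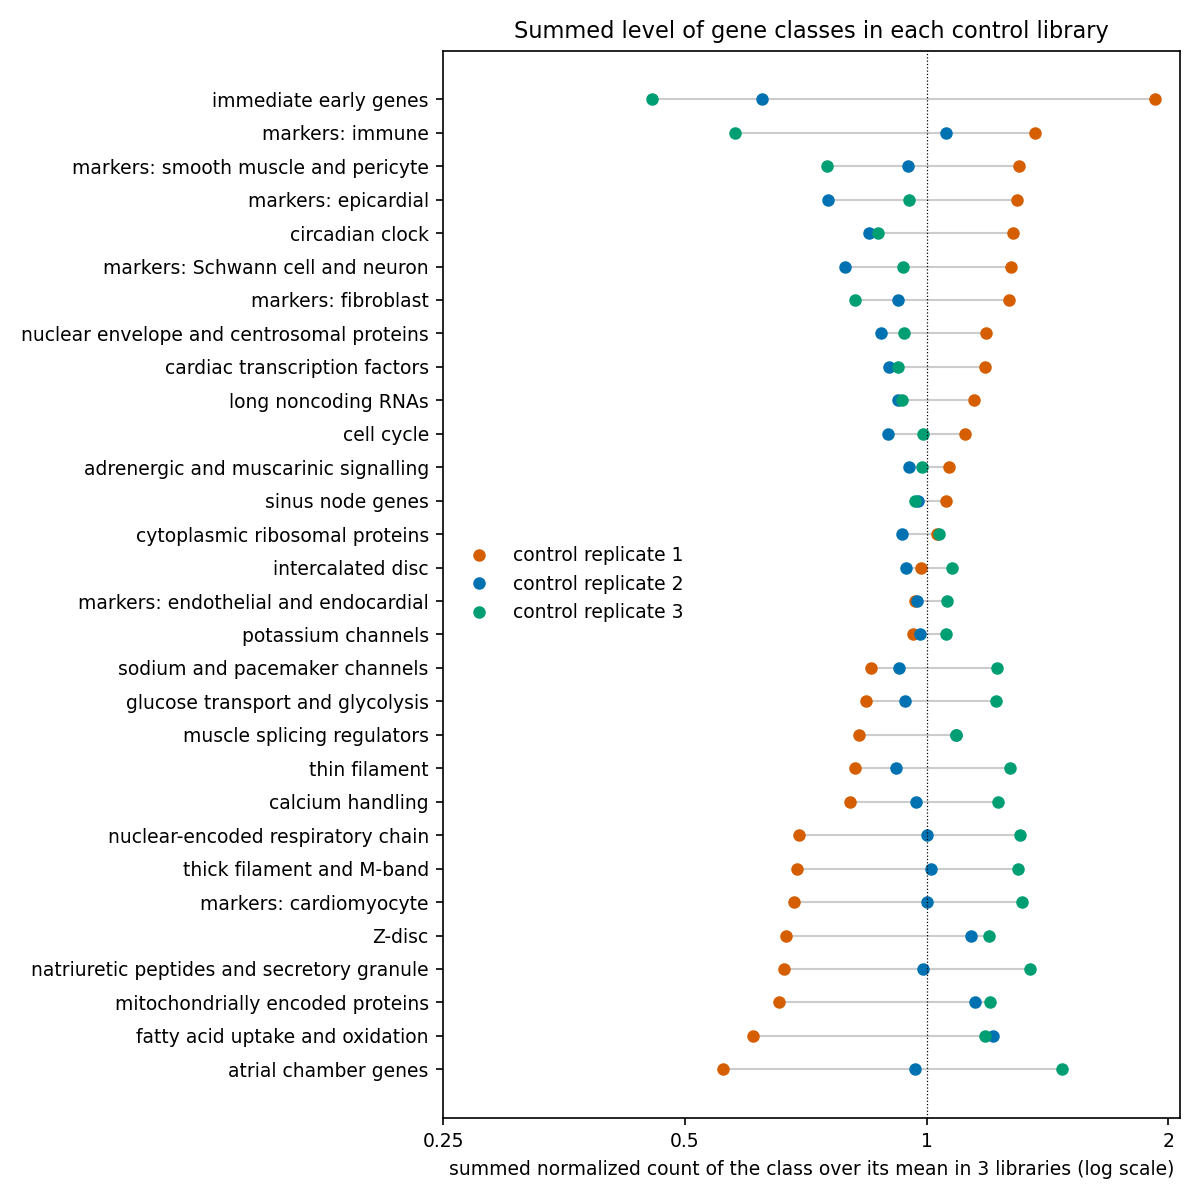
Summed normalized count of each class in control replicates 1, 2 and 3, divided by the class mean over the 3 libraries (log scale). Immediate early genes and the markers of fibroblasts, immune cells and epicardium are highest in replicate 1, and sarcomere, granule and mitochondrial classes are lowest there.

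**Figure D5:**
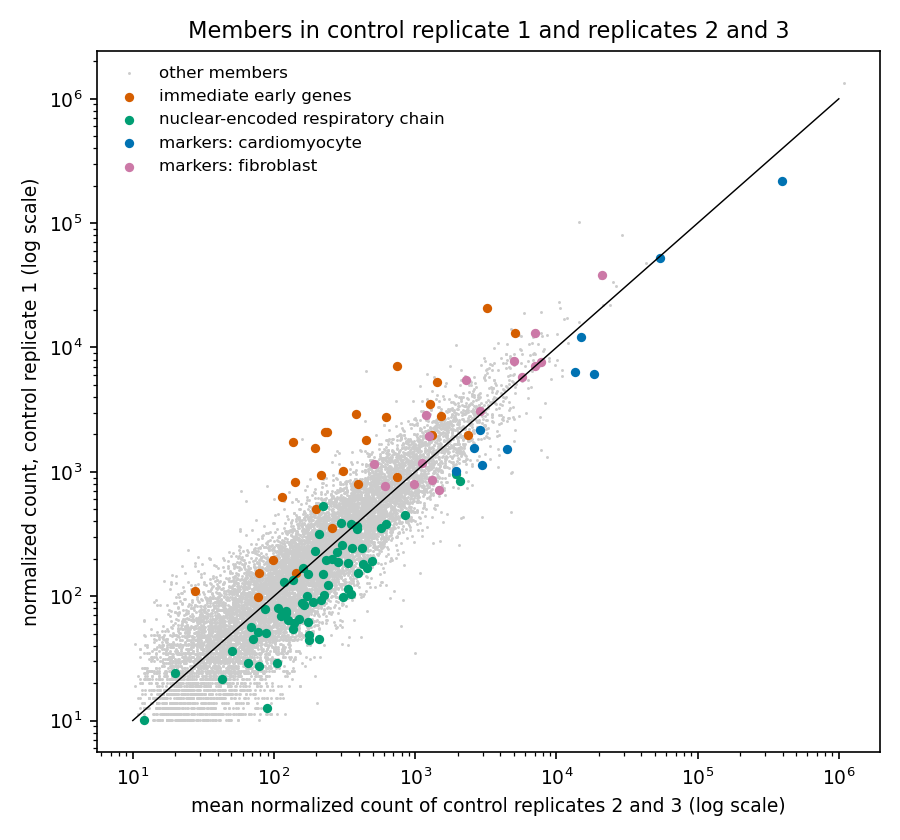
Normalized count of each member in control replicate 1 against the mean of replicates 2 and 3 (both log scales; the line marks equal values). Coloured points are immediate early genes, nuclear-encoded respiratory chain genes and the markers of cardiomyocytes and fibroblasts. Of 28 immediate early genes 27 lie above the line, and the 10 cardiomyocyte markers lie below it.

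Among members outside ribosomal RNA with a mean of at least 100 normalized counts, the 8 with the largest coefficient of variation were all highest in replicate 1. They were the immediate early genes Egr2, Nr4a1, Nr4a3 and Junb, the neutrophil chemokine gene Cxcl1, the linker histone gene Hist1h1e, the mitochondrial ribosome gene Mrps5 and the endosomal recycling gene Rab11fip5. Rab11fip5 had 6513 normalized counts in replicate 1 against 422.4 and 476.1 in replicates 2 and 3. At the other end the 8 with the smallest coefficient of variation were Erlin2, Smox, Wdr44, Zfp747, Phip, Chmp2b, Pdpk1 and Slc4a4. Phip, a chromatin-bound protein gene, had 1702, 1714 and 1705 normalized counts, a coefficient of variation of 0.345%. All 8 had a coefficient of variation between 0.178% and 0.559%. They were picked as the smallest of many, and values of 3 libraries can agree this closely by chance. Whether these genes vary less than others was not tested.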

How the data were processed

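Nuclear RNA of 3 control libraries was amplified with the Ovation kit and sequenced, per the labels' protocols; this kit does not mark strand. STAR, DESeq2 and mm10 are listed in the submitters' processing notes. Which program counted reads, on which gene models, and every version number: not given in the sources used here. Per gene, the authors deposited normalized read counts, a signal scaled by size factors. All values but 1 in the 3 columns were whole multiples of 1 read within 0.01, so the reads counted on genes were recovered. From these, levels per kb used merged exon lengths of the GRCm38 annotation, percentiles the members with a length, and ratio intervals the exact binomial method at 95%; intervals and limits of 0 cover counting error only. Each library comes from 1 animal, per the labels. No genotype comparison and no test across groups was made. Members, and the 35 gene lists, were chosen with earlier results of these data known; 4 further lists (imprinted, complement, RNA polymerase III and histone genes) were added after the values were seen. Named genes were Pcm1 and the 4 markers, the 25 highest per kb, the 3 highest members of each list, both genes of each pair, members with a role in the text, and the 8 with the largest and the 8 with the smallest coefficient of variation at a mean of at least 100 outside ribosomal RNA. A few genes that this rule names are not reported here. Levels without replicate 1 keep the same members. Alternatives were other limits, no length or genomic span, other scalings (a library sum, TMM) and leaving out each library. Marker sums without Ttn and per kb were added after seeing the data. Recovery of reads, percentiles and the log2 difference of replicate 1 were tested on simulated counts with counting error only, without spread between animals. The ratio intervals, class medians and coefficients of variation were not tested in this way. Python 3.11.15, pandas 2.3.3, numpy 2.4.6, scipy 1.17.1, R 4.3.3 and edgeR 4.0.16 (TMM factors only) were used.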

Additional observations from a re-analysis of the deposited data

How the results depend on the processing

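The number of genes passing the limit was 13229, against 14276 with a limit of 5, 9473 with a limit of 50, 14555 with a mean of at least 10, 13162 after scaling to the sum without ribosomal RNA, and 13436 to 13816 when 1 library was left out. For the median percentile of calcium handling genes, 65.9, genomic span gave 44.9 and no limit 75.2. The respiratory chain, at 84.9, had 47.7 by counts without length. Ribosomal proteins, at 53.0, had 24.8 without length, 77.3 by genomic span and 78.9 with a limit of 50. Fibroblast markers, at 97.8, had 96.6 without length, 97.0 with a limit of 50 and 98.4 with no limit. Immune markers, at 92.3, had 76.5 without length, 80.7 by genomic span, 90.5 with a limit of 50, 94.3 with no limit, and 90.2 to 93.1 when 1 library was left out and members were chosen again. Other class medians also changed by over 1.5 times under some settings. Without length, potassium channels, at 23.7, had 37.3, sinus node genes, at 24.5, had 51.3, and histone genes, at 53.0, had 24.9. By genomic span, adrenergic genes, at 60.5, had 36.0, sinus node genes 7.49, cell cycle genes, at 14.2, had 23.7, Schwann cell and neuron markers, at 6.37, had 17.5, and histone genes 91.4. A limit of 50 gave 26.8 for sodium and pacemaker channels (17.6), 14.3 for sinus node genes, 8.18 for cell cycle genes, 25.2 for smooth muscle and pericyte markers (42.2), 21.1 for Schwann cell and neuron markers and 79.6 for histone genes. No limit gave 28.1 for sodium and pacemaker channels, 38.4 for potassium channels, 38.8 for sinus node genes, 35.4 for cell cycle genes, 27.7 for Schwann cell and neuron markers and 24.5 for histone genes. Without replicate 1 the sodium and pacemaker median was 16.8 with the same members and 10.9 with members chosen again. The ratios of Sln to Pln, Gja5 to Gja1 and Nr2f2 to Hey2 were 1.14, 0.196 and 3.58 per kb and 0.546, 0.332 and 6.83 by counts. The mean sum of cardiomyocyte markers was 105790 normalized counts without Ttn, a setting added after seeing the data, and 441200 with it. The summed levels of adrenergic, ribosomal protein and sinus node genes in replicate 1 stood at 1.10, 1.05 and 1.09 times the mean of the others as deposited, and at 0.964, 0.918 and 0.952 times after scaling to the sum without ribosomal RNA. No paired analysis was possible because no test between groups was made. Depth limits the lowest levels: a gene at 0 could have up to 3 reads.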

Other observations

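The lists below were chosen after the values were seen, and their values are given as a description. Of 21 complement and plasma protein genes, 20 were members at a median percentile of 94.1, and 11 lay in the upper 10%. Together they took 1.15%, 0.788% and 0.756% of non-ribosomal reads in replicates 1, 2 and 3. C3, the central complement component, had 37658, 21491 and 20937 normalized counts, and Serping1, the inhibitor of the first complement component, 10739, 7568 and 7365.

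Of 26 imprinted genes 21 were members, 17 of them with an exon length, at a median percentile of 76.5. Igf2, a fetal growth factor, had 19083, 4868 and 7006 normalized counts in replicates 1, 2 and 3, and its neighbour H19, a noncoding RNA expressed from the other parental copy, 10533, 1612 and 2307. Peg3 had 7185, 3052 and 3916 normalized counts. For all 3 genes replicate 1 was the highest, while Grb10 was the lowest there with 830.5, 993 and 1026. Dlk1 and Phlda2 were not members, with at most 7.55 and 1.26 normalized counts.

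The RNA polymerase III transcripts Rn7sk, Rmrp and Rpph1 were all highest in replicate 1, with a median log2 difference of 2.55 from the mean of the other libraries. Rmrp, the RNA of a ribosomal RNA processing enzyme, had 345, 47.9 and 67.5 normalized counts. Of 69 replication-dependent histone genes 12 were members, at a median percentile of 53.0 (41.7 without replicate 1), and 10 of the 12 were higher in replicate 1. Hist1h1c had 695, 114 and 140.2 and Hist1h4d 388, 84.6 and 113 normalized counts. Histone genes are near-identical copies whose reads counting may split, so single values are uncertain. The share of ribosomal RNA was also highest in replicate 1, and its part in these values was not tested.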
